A study of Mus musculus with 4 samples.

Results

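The histone acetylation machinery of induced regulatory T cells was examined through the open chromatin at 10 genes that encode it, of 21774 protein-coding genes in the annotation. They were the 4 class I histone deacetylase genes Hdac1, Hdac2, Hdac3 and Hdac8, and 6 acetyltransferase genes, Ep300, Crebbp, Kat2a, Kat2b, Kat5 and Kat6a. The genes were chosen by name, and every ATAC-seq peak inside a gene record or within 10 kb on either side was taken, which gave 64 merged regions of the 93679 in the whole series. ATAC-seq maps open chromatin through a transposase that cuts DNA where nucleosomes leave it free. All cells started as naive CD4+ T cells (CD62Lhigh CD44low CD25-) from the spleens of 7-week-old male wild-type C57BL/6 mice, and both groups were stimulated for 48 h with anti-CD3 at 5 µg/ml and anti-CD28 at 1 µg/ml, together with IL-2 at 10 ng/ml and TGF-β1 at 5 ng/ml. The iTreg group had no IL-4 and the iTreg+IL-4 group had IL-4 at 15 ng/ml, with 2 libraries in each, which the study describes as biologically independent pooled samples. The comparison asks whether IL-4 goes with more or less open chromatin at the genes of the acetylation machinery.

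Acetyltransferases add acetyl groups to lysines in the tails of histones, which goes with open and transcribed chromatin, and deacetylases take them off. Class I deacetylases work in the nucleus, mostly as the catalytic subunits of corepressor complexes, while the acetyltransferases fall into families, of which EP300 and CREBBP are broad coactivators, KAT2A and KAT2B belong to the GCN5 family, and KAT5 and KAT6A to the MYST family. In T cells these enzymes also act on proteins other than histones, FOXP3 among them.

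The sequences that follow show the start sites and gene-body elements on which the results turn. They are taken from RefSeq tables or the RefSeq genome (GRCm38.p6), run 5′ to 3′ along the gene, and promoters reach from 250 bases before to 50 after the start site. Capitals mark matches, on either strand, to any of 7 motifs: CCGGAAG (ETS), CCAAT (NF-Y), GGGCGG (Sp/KLF), GCGCATGC (NRF1), TGTGGT (RUNX), TGACTCA or TGAGTCA (AP-1), and TTC and GAA with 4 bases between them (STAT6, the factor through which IL-4 signals). Hdac2 and Ep300 had the widest promoter peaks by median rank, Hdac8 was the deacetylase with the weakest, and Crebbp had a pair of separate peaks. Kat2b had more gene-body elements than any other member, and Kat5 was the only one of the 7 promoters read that had ETS matches.
Hdac2 promoter, chr10:36974294-36974593, plus strand: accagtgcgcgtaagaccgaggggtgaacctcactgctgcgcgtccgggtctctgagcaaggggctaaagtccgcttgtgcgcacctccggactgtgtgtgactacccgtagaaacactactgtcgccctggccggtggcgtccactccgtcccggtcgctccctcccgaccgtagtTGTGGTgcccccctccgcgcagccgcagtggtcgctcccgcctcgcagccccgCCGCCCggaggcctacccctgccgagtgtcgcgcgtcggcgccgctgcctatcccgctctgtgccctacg
Hdac8 promoter, chrX:102505109-102505408, minus strand: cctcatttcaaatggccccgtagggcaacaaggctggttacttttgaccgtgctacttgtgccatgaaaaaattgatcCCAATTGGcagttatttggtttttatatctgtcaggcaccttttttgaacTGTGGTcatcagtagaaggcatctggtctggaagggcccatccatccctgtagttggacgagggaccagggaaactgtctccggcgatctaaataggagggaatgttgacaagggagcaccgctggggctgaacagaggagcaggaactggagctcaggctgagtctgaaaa
Ep300 promoter, chr15:81585964-81586263, plus strand: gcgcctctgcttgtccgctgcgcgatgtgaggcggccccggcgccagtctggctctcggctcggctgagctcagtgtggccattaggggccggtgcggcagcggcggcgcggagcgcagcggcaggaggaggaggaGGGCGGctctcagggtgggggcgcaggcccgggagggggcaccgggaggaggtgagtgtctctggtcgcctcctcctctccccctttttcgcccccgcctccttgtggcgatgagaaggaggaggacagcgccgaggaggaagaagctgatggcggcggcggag
Crebbp promoter, chr16:4213355-4213654, minus strand: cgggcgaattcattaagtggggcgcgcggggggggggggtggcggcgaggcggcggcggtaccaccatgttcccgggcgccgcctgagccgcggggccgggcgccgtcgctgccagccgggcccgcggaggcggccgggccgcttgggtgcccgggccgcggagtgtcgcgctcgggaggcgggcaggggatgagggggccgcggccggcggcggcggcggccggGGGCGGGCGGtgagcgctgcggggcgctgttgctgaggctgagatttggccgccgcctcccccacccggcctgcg
Kat2b promoter, chr17:53566721-53567020, plus strand: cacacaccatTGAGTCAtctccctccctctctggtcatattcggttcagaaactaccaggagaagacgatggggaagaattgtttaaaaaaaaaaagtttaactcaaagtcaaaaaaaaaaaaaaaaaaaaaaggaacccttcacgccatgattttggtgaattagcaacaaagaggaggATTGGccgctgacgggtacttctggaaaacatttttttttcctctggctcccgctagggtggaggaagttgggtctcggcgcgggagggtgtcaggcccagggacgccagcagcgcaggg
Kat5 promoter, chr19:5610045-5610344, minus strand: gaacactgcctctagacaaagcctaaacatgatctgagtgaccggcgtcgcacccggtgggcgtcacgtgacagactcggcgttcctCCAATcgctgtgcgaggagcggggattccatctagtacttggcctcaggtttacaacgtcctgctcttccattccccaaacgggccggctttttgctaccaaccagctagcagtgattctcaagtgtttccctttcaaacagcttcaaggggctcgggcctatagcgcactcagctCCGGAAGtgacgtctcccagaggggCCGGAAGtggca
Kat2b intron 1 element, chr17:53587467-53587766, plus strand: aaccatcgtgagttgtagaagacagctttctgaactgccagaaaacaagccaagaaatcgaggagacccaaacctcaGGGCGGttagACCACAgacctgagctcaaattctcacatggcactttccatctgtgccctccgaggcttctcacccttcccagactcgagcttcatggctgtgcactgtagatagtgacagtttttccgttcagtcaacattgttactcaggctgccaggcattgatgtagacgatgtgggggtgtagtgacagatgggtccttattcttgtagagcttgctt
Kat2b intron 14 element, chr17:53664159-53664458, plus strand: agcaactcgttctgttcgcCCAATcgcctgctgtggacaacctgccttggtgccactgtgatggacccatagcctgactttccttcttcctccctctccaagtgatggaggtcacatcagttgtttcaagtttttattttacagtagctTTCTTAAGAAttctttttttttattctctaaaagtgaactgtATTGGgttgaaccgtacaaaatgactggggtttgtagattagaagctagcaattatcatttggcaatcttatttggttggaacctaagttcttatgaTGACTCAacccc
Kat6a intron 3 element, chr8:22869283-22869582, plus strand: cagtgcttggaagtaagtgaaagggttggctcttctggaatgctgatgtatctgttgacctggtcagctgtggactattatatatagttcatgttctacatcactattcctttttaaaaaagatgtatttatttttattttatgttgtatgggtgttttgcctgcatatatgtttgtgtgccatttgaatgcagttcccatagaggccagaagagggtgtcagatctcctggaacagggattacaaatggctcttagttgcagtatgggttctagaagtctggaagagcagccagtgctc

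The promoter table held 7 of the 10 members, all but Hdac1, Hdac3 and Kat6a, and 17492 coding promoters in all. GC content ran from 47% (Kat2b) and 49.7% (Hdac8) through 54.3% (Kat2a), 57% (Kat5), 69.7% (Hdac2) and 72.3% (Ep300) to 82% (Crebbp), with a median of 57% against 56.7% for all coding promoters. Only 0.560% of coding promoters had a higher GC content than Crebbp. The ratio of observed to expected CpG had a median of 0.796 for the members and 0.589 for all coding promoters, and was lowest in Hdac8 (0.332). An Sp/KLF match stood in 3 of the 7 promoters (Hdac2, Ep300, Crebbp) and in 47.5% of all coding promoters, and an NF-Y match in 3 (Hdac8, Kat2b, Kat5) against 38.9%. RUNX matches stood in 2 (Hdac2, Hdac8) against 15.1%, an AP-1 match in Kat2b alone against 4.44%, and ETS matches in Kat5 alone, which held 2, against 12.1%. Neither the NRF1 motif (3.66% of all promoters) nor the STAT6 motif (6.27%) was in any of the 7, and Kat2a held none of the motifs. A match describes the letters of this window and is no evidence of a bound factor.

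The lists held 77064 and 56645 peaks for iTreg replicates 1 and 2 and 78670 and 67743 for iTreg+IL-4 replicates 1 and 2, and the windows of the members held 54, 40, 58 and 47 of them in that order. Depth is unknown, since the lists hold no reads. The deposited peak heights, which are not scaled between libraries, were not alike. The lowest height in a list was 12, 9, 12 and 10 in that order, and the height at the Hdac1 promoter was 652, 291, 543 and 472. Widths and scores therefore stand below as ranks, the percent of peaks in the same list that were wider or had a higher score (−log10 of the q-value), so that a low percent is a wide or strong peak. In bulk chromatin, more cells with an open site and more cuts per cell cannot be told apart. Promoter peaks were called in all 4 lists at 8 of 9 T cell markers (the exception was Foxp3, with none within 500 bases of its main start site), at 0 of 4 B cell markers, 0 of 2 natural killer markers, 1 of 4 myeloid markers (Cd14), 1 of 3 non-haematopoietic markers (Epcam) and 1 of 2 CD8 markers (Cd8b1). Among the rest, Ms4a1 (B cell) and Itgam (myeloid) had one in 3 lists, Cd8a in 2 and Pax5 (B cell) in 1, and Pax5, Col1a1 and Pecam1 had a peak in all 4 lists at another annotated start site. Foxp3 had a peak at another annotated start site in 1 list, and 3 intragenic regions, 1 of them in all 4 lists. From signal tracks rather than peak calls, the paper describes the Foxp3 promoter as highly accessible without IL-4.

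All 10 members had a promoter peak, within 500 bases of the main start site, in each of the 4 lists. Of all coding genes, 54.9% had one in every list. Among those, the members as a group stood near the middle: the median member had 15.2% of peaks wider and 10.4% with a higher score, against 14.2% and 10.0% for the coding promoters. Within the group the spread was wide, from Ep300, whose median width rank left 1.70% of peaks wider, to Crebbp at 31.3%. By width the order was Ep300, Hdac2, Hdac3, Kat6a, Kat5, Hdac8, Kat2a, Kat2b, Hdac1 and Crebbp. Among neighbours in this order, the ranges over the 4 libraries were apart only between Ep300 and Hdac2 and between Hdac1 and Crebbp. By score the order was another one, with Hdac1, Crebbp, Ep300 and Hdac2 first and Hdac8, Kat2a and Kat2b last. The place of Kat2b depends on the 500-base window, which took in its stronger second region in 1 library only. Read at the same regions in every library, Kat2b had a median of 13.2% of peaks with a higher score, ahead of Kat6a at 17.9%, and 4.97% of peaks wider, between Hdac2 and Hdac3.

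**Figure D1:**
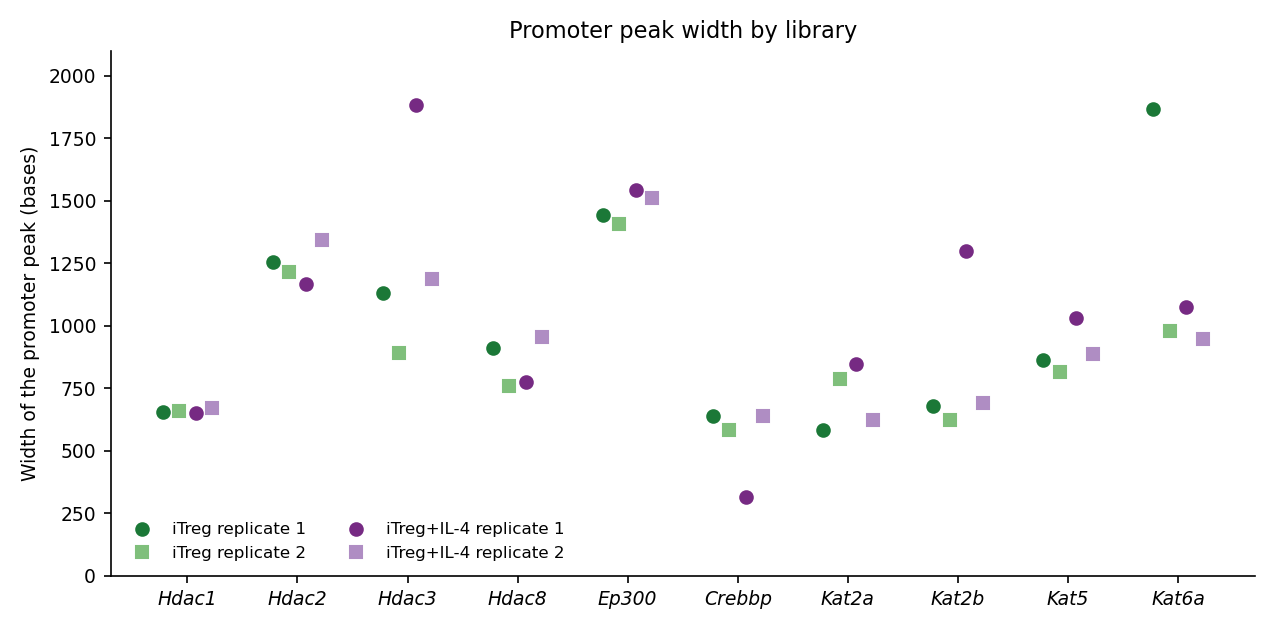
Width in bases of the promoter peak of each member (vertical axis, from 0), 1 point per library, green for iTreg and purple for iTreg+IL-4, circles for replicate 1 and squares for replicate 2. Ep300 is wide in every library (1407 to 1543 bases), Hdac1 hardly varies (649 to 669 bases), and single libraries stand apart at Hdac3, Crebbp, Kat2b and Kat6a.

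Hdac1, the catalytic subunit of the SIN3, NuRD and CoREST corepressors together with Hdac2, had the strongest promoter peak of the group. It was also among the narrowest. Its start site lies at 129542646 on chromosome 4, minus strand, and the merged region ran from 129542499 to 129543183. In the order iTreg replicates 1 and 2, iTreg+IL-4 replicates 1 and 2, which is kept from here on, its width was 653, 658, 649 and 669 bases. The −log10 q was 592, 262, 476 and 426, and 2.1%, 3.45%, 2.48% and 2.88% of peaks scored higher. The conditions overlapped in both measures. Of the coding promoters with a peak in all lists, 81.3% ranked wider than Hdac1 but only 15.7% scored higher, although across all peaks of a list width and score rose together (rank correlation 0.698 to 0.707, a description over peaks that share a library).

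Hdac2 had a wide promoter, a region on chromosome 10 from 36974019 to 36975362. Its peak spanned 1253, 1215, 1167 and 1344 bases, with an upstream edge 505 to 525 bases before the start site, past the sequence shown above, and a downstream edge 661 to 818 bases into the gene. Only 14.1% of coding promoters ranked wider, while 40.9% scored higher. The share of peaks with a higher score was 8.34% and 8.15% in the iTreg libraries against 6.98% and 7.46% in those with IL-4, a mean of 8.24 ± 0.131% against 7.22 ± 0.337% (SD, n = 2). The conditions did not overlap, at the smallest p this design allows (exact two-sided permutation test, p = 0.333). With ranks among regions called in all 4 libraries they did overlap.

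Hdac3, the deacetylase of the NCoR and SMRT corepressors, shares its open region with the start site of Rell2, which lies 571 bases away on the opposite strand. Its promoter peak measured 1129, 892, 1882 and 1187 bases. The last pair, with IL-4, exceeded both widths without it, and 5.91% and 12.9% of peaks were wider without IL-4 against 0.428% and 4.65% with it (9.40 ± 4.94% and 2.54 ± 2.99%, SD, n = 2). The map of the start sites shows that in iTreg+IL-4 replicate 1 a single peak ran from 1562 bases before to 319 after the start site, where the other 3 libraries had a separate upstream peak of 344 to 455 bases. The score ranks overlapped, at 11.9%, 8.00%, 11.4% and 9.09%.

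Hdac8, a class I enzyme not known as a subunit of the large corepressor complexes, had the weakest promoter of the deacetylases, on chromosome X from 102504627 to 102505637. Its peak was 911, 759, 775 and 956 bases wide, near the middle of all coding promoters, of which 56.3% ranked wider. By score, 82.9% ranked higher. The share of peaks with a higher score was 30.8% and 29.6% without IL-4 and 28.6% and 28.1% with it, which did not overlap (30.2 ± 0.834% and 28.3 ± 0.414%, SD, n = 2). With ranks among regions called in all 4 libraries the difference, IL-4 minus without, turned from -1.85 to 1.11 percentage points and the ranks overlapped. Its promoter sequence was also the poorest in CpG of those shown.

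Ep300, the first of the paired coactivators, had the widest promoter by rank, on chromosome 15 from 81584926 to 81586468. Its peak measured 1444, 1407, 1543 and 1512 bases and lay mostly upstream, from 1212 to 1288 bases before the start site to 194 to 254 after it, over the start sites of the genes 1110025M09Rik and Gm23880 as well. Only 5.68% of coding promoters ranked wider. In each list 1.99%, 2.02%, 1.41% and 1.42% of peaks were wider, so that both libraries with IL-4 lay below both without (1.41 ± 0.00601% against 2.01 ± 0.0199%, SD, n = 2, exact two-sided permutation test, p = 0.333). The score ranks overlapped at 7.26%, 8.31%, 8.10% and 6.77%.

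Crebbp, the paralog of Ep300, had an open promoter of another shape, on chromosome 16. In all 4 libraries it held a strong peak upstream and a weaker one over the start site, whose surroundings are the GC-rich stretch shown above. The upstream peak (merged region 4213866 to 4214534) measured 638, 583, 587 and 637 bases, and 6.46%, 5.40%, 5.92% and 6.14% of peaks scored higher. The peak over the start site (4213006 to 4213468) measured 463, 357, 314 and 347 bases, and 45.1%, 72.7%, 67.2% and 62.0% scored higher. In iTreg+IL-4 replicate 1 the upstream peak ended just outside the 500-base window, so that the promoter was read there from the weaker peak, with 67.2% of peaks above it. Read at the same regions in every library, the score rank of Crebbp lay between 5.40% and 6.46%, and the conditions overlapped.

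Kat2a and Kat2b encode the GCN5 family acetyltransferases, which sit in SAGA and related coactivator complexes, and both had weak peaks at the start site itself. The Kat2a peak, over exon 1 on chromosome 11 (100711886 to 100712816), measured 582, 785, 848 and 623 bases, and 24.7%, 42.7%, 30.9% and 29.1% of peaks scored higher. iTreg replicate 2, the shortest list, had its lowest rank, and the conditions overlapped. At Kat2b, on chromosome 17, the peak over the start site (53566507 to 53567195) measured 679, 621, 664 and 689 bases and 43.2%, 33.3%, 30.7% and 26.9% of peaks scored higher, so that both libraries with IL-4 ranked above both without. A second and stronger region (53567418 to 53568714) was centred 1.1 kb downstream in intron 1, with widths of 1218, 1119, 1297 and 930 bases and 12.7%, 15.5%, 10.6% and 13.8% of peaks above it. In iTreg+IL-4 replicate 1 this second peak began 447 bases from the start site and was counted as the promoter peak, which gave a width of 1297 bases and 10.6% in place of 664 bases and 30.7%. Read at the same regions in every library, the difference in width rank turned from -13.7 to 2.61 percentage points, and neither measure was free of overlap.

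Kat5, the acetyltransferase of the NuA4-type complex, had a peak of 864, 815, 1032 and 886 bases over its start site, on chromosome 19 from 5609450 to 5610481. The ranges did not overlap, with 14.7% and 16.7% of peaks wider without IL-4 and 8.61% and 13.6% with it (15.7 ± 1.44% and 11.1 ± 3.52%, SD, n = 2). The share of peaks with a higher score was 9.72%, 14.3%, 9.18% and 11.2%, where the conditions overlapped. Both of its ETS matches lie just downstream of the start site.

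Kat6a, a MYST acetyltransferase required in haematopoietic stem cells, had a promoter peak of 1865, 978, 1073 and 948 bases, on chromosome 8 from 22858744 to 22860729. The iTreg replicate 1 value stood apart, and its peak ran without a break from 691 bases before to 1173 after the start site, where the other 3 libraries had a second peak downstream. The start site of Gm46036 lies in the same region. The score rank was steady at 17.4%, 19.6%, 17.6% and 18.1%, and the conditions overlapped in both measures.

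**Figure D2:**
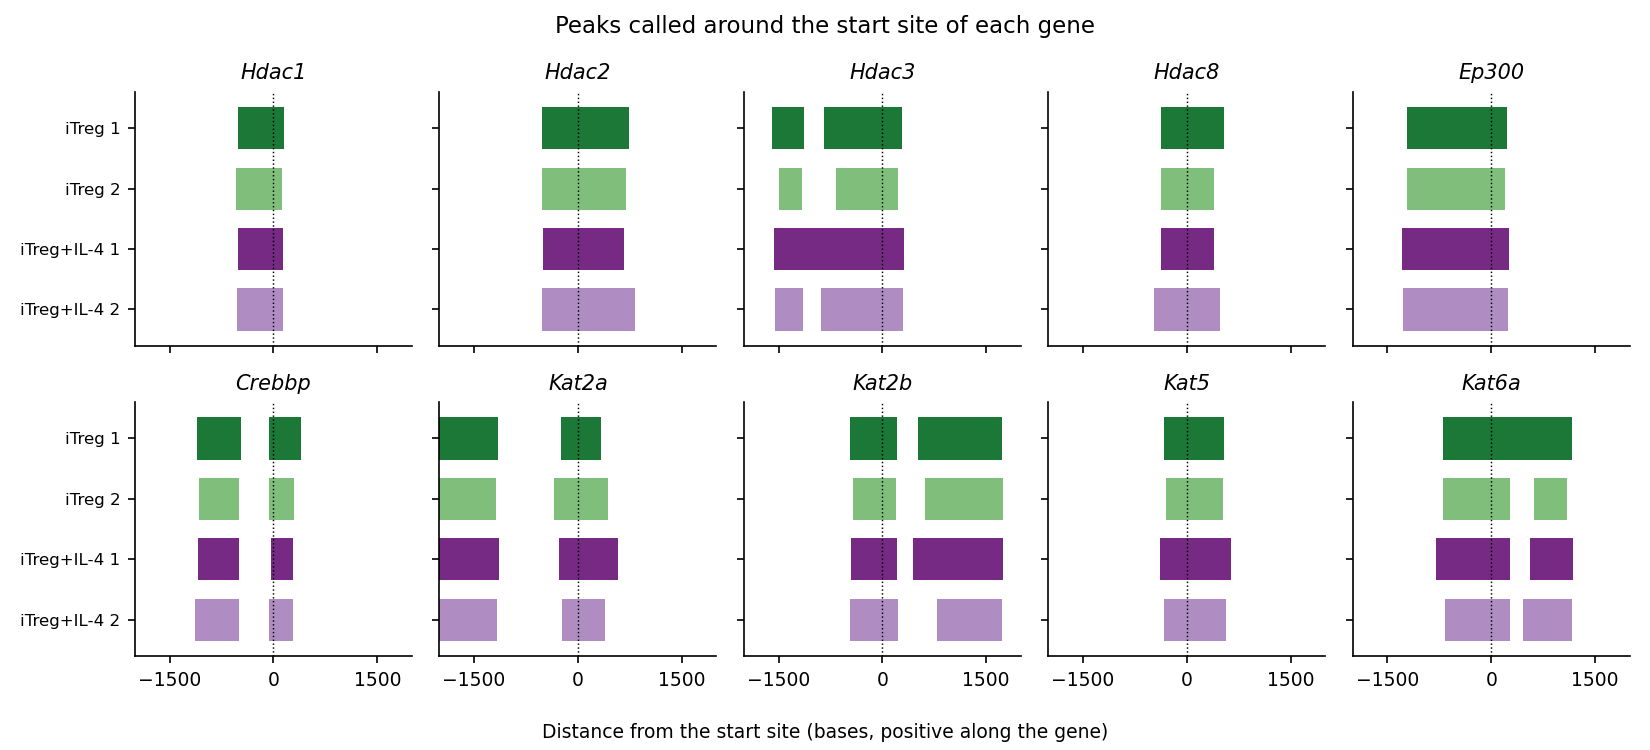
Peaks called from 2000 bases before to 2000 after the start site of each member (horizontal axis, bases, positive along the gene, dotted line at the start site), 1 row per library, ending at the edges of the panel. Hdac3 and Kat6a have a single joined peak in 1 library each, Crebbp has a pair of peaks in all 4, and the second Kat2b region begins at different distances in the 4 libraries.

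Between conditions, 4 of the 10 promoters (Hdac3, Ep300, Kat2b, Kat5) had width ranks that did not overlap and were wider with IL-4. Of the coding promoters with a peak in every list, 21.3% did the same. None was narrower with IL-4, against 9.69% of coding promoters. By score, 3 (Hdac2, Hdac8, Kat2b) ranked higher with IL-4 without overlap, against 20.4% of coding promoters, and 0 ranked lower, against 5.97%. Read at the same regions in every library, an alternative chosen after seeing the data, 3 were wider (Hdac3, Ep300, Kat5), against 21.3% of coding promoters so read, and 2 scored higher (Hdac2, Hdac8), against 20.4%. Leaving out a library makes non-overlap easier for every gene: without iTreg+IL-4 replicate 1, 7 members ranked wider against 35.2% of coding promoters, and without iTreg replicate 1, 8 scored higher against 67.6%. Among coding promoters too, wider and stronger ranks with IL-4 outnumbered the opposite, but the balance depended on how ranks were taken: with lists of equal length 12.0% were wider and 14.7% narrower, and with ranks among regions called in all libraries 11.2% were wider and 15.0% narrower, 12.7% scored higher and 13.0% lower. Under these rules 4 and 3 members, in that order, were wider and 1 (Kat6a) was narrower. No member could reach an exact p below 0.333 with 2 libraries against 2.

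**Figure D3:**
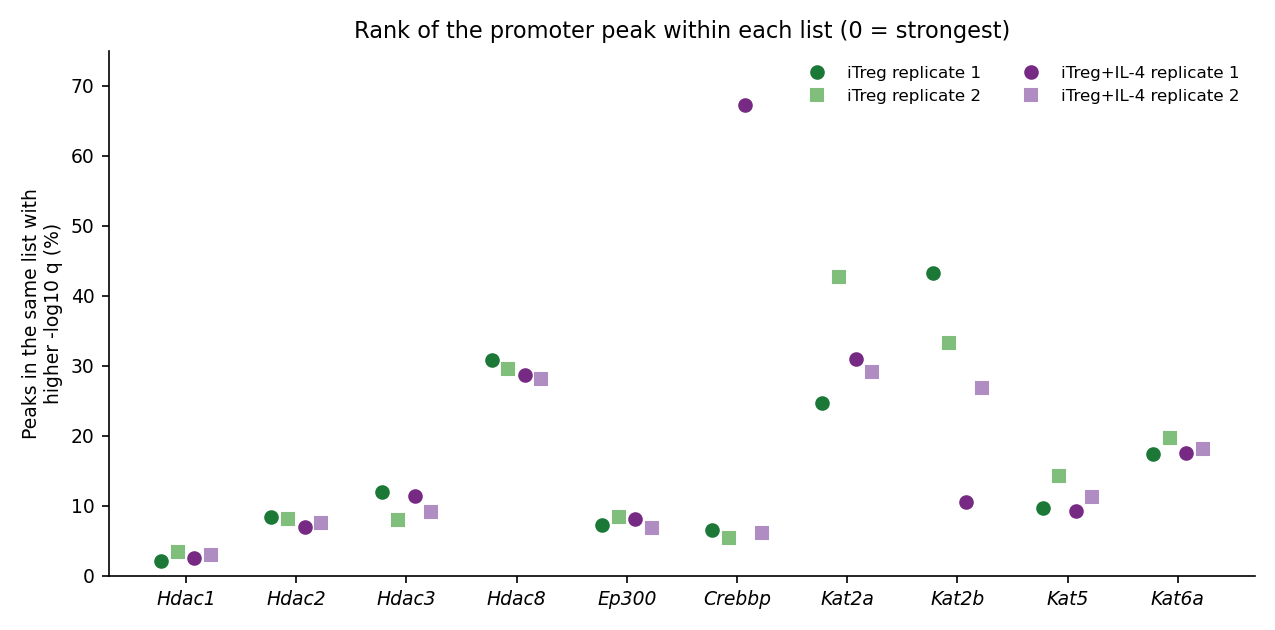
Percent of peaks in the same list with a higher −log10 q than the promoter peak of each member (vertical axis, 0 is the strongest), 1 point per library, colours and shapes as in the plot of widths. Hdac1 stays between 2.1% and 3.45%, Hdac8 between 28.1% and 30.8%, and the point of Crebbp at 67.2% is the library in which only the weaker peak touched the 500-base window.

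Away from the start sites, most of the regions lay in the windows of a few genes. The 64 regions fell into 12 promoter regions, 28 intragenic elements (inside a gene record and more than 1 kb from any annotated start site), 5 regions in a gene body nearer to a start site, 7 flanking regions within 1 kb of the start site of a neighbouring gene, and 12 other flanking regions. In all 4 lists were 36 of the 64, against 51.0% of all regions of the series. All 12 promoter regions and all 7 flanking regions at start sites were among them. A promoter peak in all 4 lists was common: 12172 to 12836 coding genes had a promoter peak in a given list, and 11957 in all 4. Of the 28 intragenic elements 11 were in all 4 lists (39.3%), near the 42.7% of the intragenic regions of all coding genes. A region missing in iTreg replicate 2 alone occurred 6 times (9.97% of all regions), and one called only in both replicates numbered 1 occurred 7 times (7.60% of all regions).

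**Figure D4:**
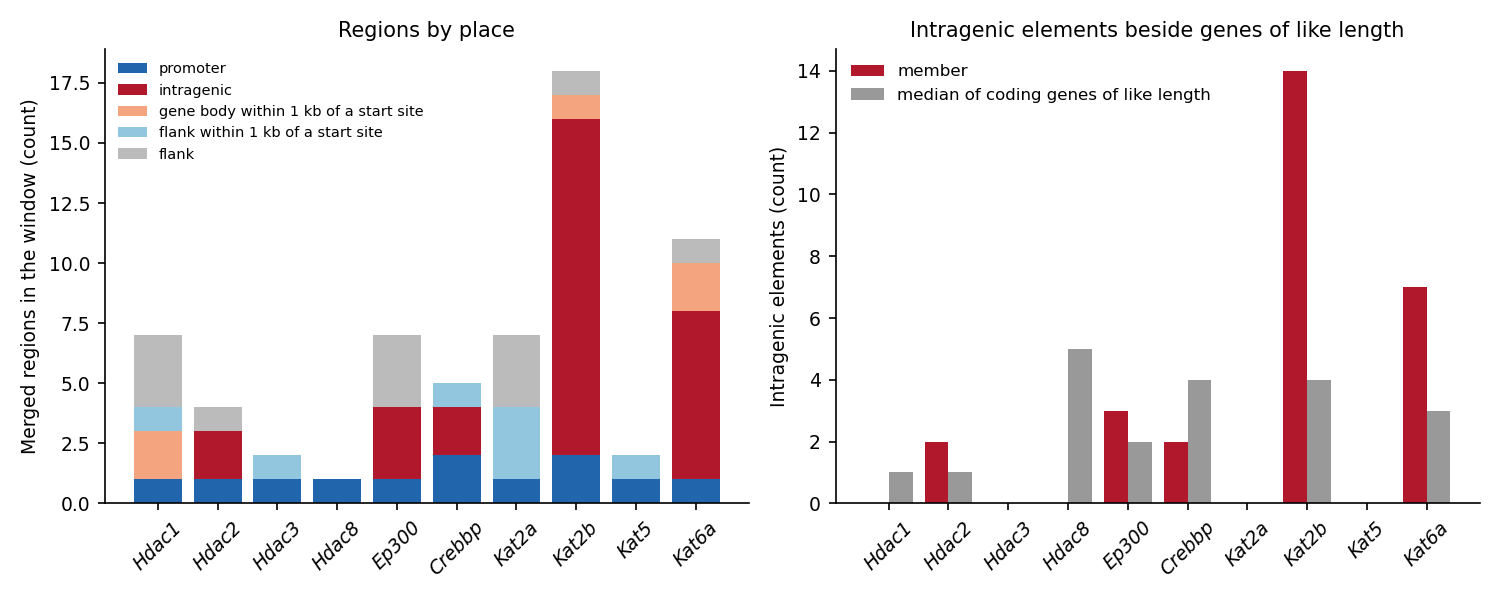
Left, the number of merged regions in the window of each member, stacked by place. Right, the number of intragenic elements of each member (red) beside the median of coding genes whose length lies within 1.5-fold (grey). Kat2b has 14 elements against a median of 4, Kat6a 7 against 3, and Hdac8 none against 5.

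Kat2b held 14 of the 28 intragenic elements, all in introns and 10 of them in intron 1. They numbered 13, 8, 14 and 10 in the 4 libraries, and 8 were in every list. The gene record is 106 kb long (chromosome 17, from 53566774 to 53672721), which gave 13.2 elements per 100 kb. Of 2200 coding genes of like length, 5.91% had as many or more. The upper 50% of each list left 7. The strongest element, in intron 1 at 53587126 to 53588108 and 20.6 kb from the start site, measured 983, 877, 942 and 891 bases, and only 5.49%, 9.01%, 5.82% and 7.66% of peaks scored higher. It thus ranked above the Kat2b start site in every library. Its central sequence, shown above, has an Sp/KLF and a RUNX match.

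A second strong element of Kat2b lay in intron 14, 97.3 kb from the start site (53663980 to 53664637), with 16.2%, 28.3%, 14.7% and 19.1% of peaks above it. Its central sequence, also shown above, holds a STAT6-type, an AP-1 and 2 NF-Y matches. Elements in intron 9 (83.4 kb; 25.9%, 27.3%, 24.1% and 22.0%) and intron 1 (10.9 kb; 23.7%, 38.1%, 22.9% and 30.3%) came next. Those at 3.2 kb in intron 1 and at 90.6 kb in intron 11 ranked lower, with medians of 40.0% and 44.4%. The lowest of the 8 in every list was at 36.8 kb in intron 1, where between 70.8% and 85.5% of peaks scored higher.

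**Figure D5:**
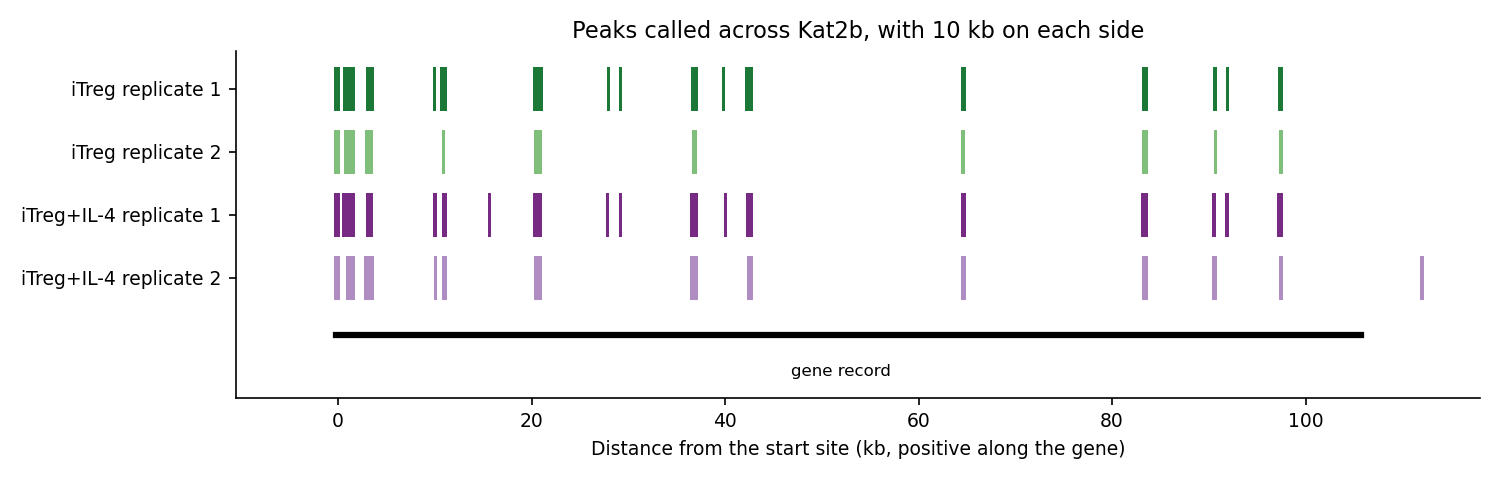
Peaks called across Kat2b and 10 kb on each side (horizontal axis, kb from the start site, positive along the gene), 1 row per library, with the gene record as a black bar. The narrowest peaks are drawn wider than they were called. The 8 elements present in all rows include those at 20.6 and 97.3 kb, and iTreg replicate 2 has the fewest peaks.

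Kat6a had 7 intragenic elements over 83.8 kb, 5 of them in intron 3, and 2 were in all 4 lists. The elements at 23.4, 28.3 and 68.2 kb were called in iTreg+IL-4 replicate 1 alone, so that 4 remained without that library, as with lists of equal length, and the upper 50% of each list left 1. Of the 2 elements in all 4 lists, the stronger lay in intron 13 at 69.2 kb, with 37.6%, 61.1%, 56.7% and 54.1% of peaks above it. The other lay in intron 3 at 36.9 kb, with 65.4%, 74.4%, 85.1% and 72.8%. Of 2665 coding genes of like length, 21.1% had as many elements or more. Ep300 had 3 elements, 2 in introns and 1 in the coding part of exon 31, none of them in all 4 lists, and 1 remained with lists of equal length and with the upper 50%. Crebbp had 2 over 133 kb, against a median of 4 for genes of like length. Of these, the one at 58.2 kb came from iTreg+IL-4 replicate 1 and no other list, so that 1 remained without it, and the upper 50% of each list left 0. Hdac2 had 2 in introns 2 and 3, neither called in iTreg replicate 2, and the upper 50% left 1.

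Hdac1, Hdac3, Hdac8, Kat2a and Kat5 had no intragenic element in any list. For Hdac1 this depends on the limit of 1 kb from a start site: its regions in introns 3 and 2, found in 3 lists and in 1, lie 852 and 889 bases from one, and with a limit of 500 bases it had 2 elements in place of 0. For the short genes this is common: 79.6% of coding genes of like length to Kat2a (7.74 kb) and 77.0% of those like Kat5 (8.54 kb) had none. Hdac8 is 221 kb long, and 15.6% of the 1027 coding genes of its length had none. Its promoter region was the single region in its window, while Kat2a, in a gene-dense stretch beside Dhx58 and Hspb9, had 6 flanking regions.

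A single region split the libraries by condition in its calls. An element of 311 bases in intron 3 of Kat6a (chr8:22869278-22869588), 9.9 kb from the start site and the third element shown above, was called in both iTreg libraries and in neither with IL-4. It was a weak peak, with a −log10 q of 9.48 and 3.82, and 75.9% and 89.0% of peaks scored higher. The call was lost with lists of equal length and with the upper 50% of each list, where Kat2b regions at 10.0 and 64.7 kb were, in that order, called only with IL-4 (1.92% of all regions with lists of equal length, and 912 of 43530 with the upper 50%). Regions called only without IL-4 made up 0.699% of all regions. No region of the members was called in both libraries with IL-4 and in neither without, against 2.60% of all regions. Leaving out any library but iTreg replicate 2 gave such regions, though fewer libraries make such a split easier. The central sequence of the Kat6a element held none of the motifs.

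Of the 11 intragenic elements in all 4 lists, 4 had score ranks that did not overlap and were higher with IL-4, a comparison added after seeing the data. Of the intragenic regions of all coding genes in every list, 20.6% did the same. None was lower, against 4.25%. Without iTreg replicate 1 the count was 9 of 11, against 74.2% of such regions in the remaining lists. The 4 were the Kat2b elements at 36.8, 64.7 and 83.4 kb and the Crebbp element in intron 1 at 11.4 kb. The largest difference was at 64.7 kb in intron 4 of Kat2b, where 69.0% and 67.7% of peaks scored higher without IL-4 and 45.5% and 47.5% with it, a mean of 68.3 ± 0.891% against 46.5 ± 1.41% (SD, n = 2, exact two-sided permutation test, p = 0.333). At the Crebbp element the values were 83.3% and 93.7% without IL-4 and 71.5% and 66.2% with it. The strongest Kat2b element, at 20.6 kb, overlapped between conditions. With lists of equal length 1 of 8 elements (64.7 kb) was higher and 1 (Kat6a, 69.2 kb) lower, against 15.8% and 11.8% of such regions. With ranks among regions called in all libraries 2 were higher (64.7 kb and Crebbp) and 2 (both Kat6a) lower, against 16.4% and 12.0%.

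A region in intron 3 of Kat6a that is no intragenic element, because it covers the start site of the noncoding gene Gm45555 14.1 kb into Kat6a, was called in all 4 lists. Its peak measured 363 and 452 bases in the iTreg libraries but 837 and 781 bases in those with IL-4, and 42.6% and 63.6% of peaks scored higher without IL-4 against 26.6% and 32.9% with it. The conditions did not overlap in either measure. The share of regions of this kind that did the same was not counted. Of the intragenic regions of all coding genes in every list, 20.6% had score ranks higher with IL-4 without overlap. This region was picked for its values, so they are given without a test, and it was not read under the other ways of ranking.

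In the 300 bases around the centre of the 28 intragenic elements, the median GC content was 43.3%, against 47.7% over the 67646 regions of the series more than 1 kb from a start site. The STAT6-type motif was in 7 of the 28, against 9.20% of those regions. It was found in 5 Kat2b elements and 1 each of Crebbp and Kat6a, and in 2 of the 11 elements in every list (9.03% of such regions). NF-Y matches were in 7 (29.3%), RUNX in 6 (32.2%), AP-1 in 6 (15.5%) and Sp/KLF in 1 (8.66%), and no element held the ETS (2.75%) or NRF1 (0.605%) motif.

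Among other genes of histone acetylation, 49 of 51 had a promoter peak in all 4 lists, against 54.9% of coding genes. These were 13 of 14 other deacetylases, 7 of 7 other acetyltransferases, 15 of 16 genes of class I deacetylase complexes and 14 of 14 of acetyltransferase complexes. The exceptions were Hdac9, a class IIa deacetylase, and Ncor1, a corepressor subunit that works with HDAC3. Neither had a peak within 500 bases of its main start site in any list, but both had one in all 4 at another annotated start site. Width ranks without overlap were wider with IL-4 at 7 of the 49 (21.3% of coding promoters) and narrower at 2 (9.69%), and score ranks were higher at 9 (20.4%) and lower at 3 (5.97%).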

How the data were processed

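Per the methods of the study and the submitters' processing notes, the authors mapped paired ATAC-seq reads to mm10 and called peaks in each library alone, without pooling replicates; the notes list Bowtie2 2.2.5, MACS2 2.1.2 and bedtools 2.16.2. Removal of duplicates and a shift for the transposase offset are not given in the sources used here, and could move peak edges and scores. Each deposited list holds a position, a value read as the −log10 of the q-value (lowest value 1.31) and a height read as the signal of the pileup, in columns without names and not scaled between libraries.

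Peaks of the 4 lists that share at least 1 base were merged. The promoter peak was the widest, and for scores the strongest, within 500 bases of the start site of the RefSeq main transcript. Ranks are within each list. Start sites came from RefSeq and GENCODE, sequences from RefSeq (GRCm38.p6). Conditions were compared per member by an exact two-sided permutation test over the 4 libraries, whose smallest p is 0.333, and by whether ranks overlapped. Counts of promoters, elements and regions that differed between conditions stand beside the same share over all coding genes or regions, taken under the same setting. Named items were all 10 members, their promoter regions, regions called in a single condition, the 10 intragenic elements in all 4 lists with the best median score rank, genes with a start site within 1 kb of these, and acetylation genes without a promoter peak; other names were chosen after their values were seen. The members and lists were chosen with earlier results of these data known. Alternatives changed the promoter window, the rule for ranks, the length of the lists, the flanks, the merging and the libraries. Python 3.11.15, numpy 2.4.6, pandas 2.3.3, scipy 1.17.1 and pysam 0.24.0 were used, and the merging, counting and ranking were tested on simulated lists.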

Additional observations from a re-analysis of the deposited data

How the results depend on the processing

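All 10 members kept a promoter peak in every list under each alternative run, except that 9 did with only the stronger 50% of each list by score, which removed Crebbp in iTreg+IL-4 replicate 1. The count of members with width ranks wider with IL-4 was 3 or 4 (4 as reported) under the 7 alternatives with all libraries and no replicate block, against 11.2% to 21.5% of coding promoters. Among these alternatives that of narrower ranks was 1 in place of 0, against 9.72% to 15.0%, with a window of 100 bases, with lists of equal length, with ranks among regions called in all 4 libraries, and with the peak covering the start site. Score ranks higher with IL-4 fell from 3 to 1 (Kat2b), against 12.7% of coding promoters, with ranks among regions called in all libraries. Hdac3, Ep300 and Kat5 were wider with IL-4 also under both other ways of ranking, and the windows and reading rules gave them the reported values.

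The upper 50% of each list left 34 of 64 regions, 10 intragenic elements, 6 of them in all lists, 1 region called only with IL-4 (Kat2b, 64.7 kb; 912 of all 43530 regions) and 0 only without (0.310%). Lists of equal length gave 1 region only with IL-4 (Kat2b, 10.0 kb; 1.92%), and the 1 called only without (1.03%) was another Kat6a region, 90.2 kb from the start site. Intragenic elements in all lists with score ranks higher and lower with IL-4 were 4 and 0, but 1 and 1 with lists of equal length (15.8% and 11.8% of intragenic regions) and 2 and 2 with ranks among regions called in all libraries (16.4% and 12.0%).

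Leaving out each library in turn gave 5 to 7 members wider, against 30.3% to 54.2% of coding promoters, and 0 to 3 narrower, against 18.9% to 33.6%. Scores were higher in 4 to 8 (25.0% to 67.6%) and lower in 0 to 3 (11.1% to 33.9%). Called only with IL-4 were 0 to 8 regions (3.41% to 13.6% of all regions) and only without 1 to 2 (at most 8.21%), and 5 to 9 elements were higher (24.8% to 74.2% of intragenic regions) and 0 to 3 lower (7.90% to 36.4%). Fewer libraries make non-overlap easier. The highest counts came without iTreg+IL-4 replicate 1 (7 wider, 35.2%), without iTreg replicate 1 (8 higher scores, 67.6%; 9 elements, 74.2%) and without iTreg+IL-4 replicate 2 (8 regions only with IL-4, 11.1%).

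With the replicate number as a block, which asks only that same-numbered libraries differ in 1 direction, 4 members were wider (34.3% of coding promoters) and 1 narrower (16.9%), 4 scored higher (42.2%) and 1 lower (12.4%), and 6 elements scored higher (45.1% of intragenic regions) and 0 lower (11.4%). The deviations of same-numbered libraries correlated (r = 0.499 over 47767 regions), but the labels give no shared source and 2 pairs do not establish a pairing. Of 126 counts over the members, 90 stayed within 1.5 times the reported value and 36 moved. The depth of the libraries is unknown, and the part played by list length in these counts was not separated from that of IL-4.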
